A study of Mus musculus with 22 samples.

Results

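The genes described here encode the nuclear subunits of the mitochondrial respiratory chain and of ATP synthase. They were taken as every gene of the MOE430A and MOE430B chips whose symbol starts with Nduf, Uqcr, Cox4, Cox5, Cox6, Cox7, Cox8 or Atp5, or is Sdha, Sdhb, Sdhc, Sdhd, Cyc1 or Cycs, with Cox6a2 left out. This gave 91 genes of the 18193 named by a probe set of their own, with 182 of 45037 probe sets. They fall into 34 genes of complex I, 8 complex I assembly factors, 4 of complex II, 9 of complex III, 1 of cytochrome c, 18 of complex IV and 17 of complex V. A gene is represented by its probe set with the highest mean signal.

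Mouse bone marrow cells were stained for CD45, the surface phosphatase of white blood cells, and for Sca1, an antigen of blood stem cells and of some mature leukocytes, and were then sorted. Each of 11 RNA samples was hybridized to both chips. The groups are OGCsort +/+ (CD45 and Sca1 both present, samples 1, 5 and 6), CPGSE +/+ (both present, samples 4 and 6, with haematopoietic stem cells given as source), OGCsort +/- (CD45 alone, samples 1, 7 and 9) and OGCsort -/- (neither, samples 4, 5 and 8). The stated purity was 90% for OGCsort and 95 to 98% for CPGSE, and no strain, age or treatment is given in the labels used here. The labels do not say that the samples of a group are separate animals, and the p-values therefore speak only for the spread among the samples at hand.

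Complex I takes electrons from NADH and complex II from succinate. Both pass them through ubiquinone to complex III, on by cytochrome c to complex IV, and there to oxygen, while the proton gradient that complexes I, III and IV build drives ATP synthase, complex V. Red cell precursors need mitochondria for haem synthesis and lose them before they enter the circulation, and many other blood cells rely largely on glycolysis.

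The -/- samples were high in transcripts of red cell precursors and of dividing cells. They were low in those of white cells apart from neutrophils, whose marker sums overlapped with those of +/+ samples. The summed signal of 9 of 10 erythroid markers was 7310 to 8637 in +/+, 8444 to 13518 in CPGSE, 5353 to 7019 in +/- and 246835 to 380347 in -/- samples. The summed signal of 7 of 8 genes of dividing cells was 6556 to 8278 in +/+, 6144 to 13665 in CPGSE, 9266 to 13932 in +/- and 41432 to 67144 in -/- samples. Ptprc, the gene of CD45, had a signal of 8780 to 12026 in +/+, 7213 to 8516 in +/- and 149 to 1142 in -/- samples, with the highest -/- value in sample 4. The summed signal of all 8 monocyte and macrophage markers was 50615 to 64840 in +/+, 33185 to 59723 in +/- and 1724 to 6073 in -/- samples. That of all 4 MHC class II genes was 105860 to 145125 in +/+, 17812 to 39724 in +/- and 1084 to 3674 in -/- samples. That of 7 of 8 B lymphoid markers was 25834 to 35503 in +/+, 19829 to 50907 in +/- and 2528 to 15147 in -/- samples. For 7 of 8 T and NK markers it was 11283 to 13739, 8879 to 11650 and 3533 to 5884. For all 10 neutrophil markers it was 7962 to 33577, 106162 to 434628 and 2065 to 20914. The 3' over 5' signal ratio of Gapdh on chip A, a measure that rises as RNA degrades, was 9.14 to 24.8 in +/+, 13.83 to 19.59 in +/- and 8.17 to 11.84 in -/- samples. The part of cell type, cell division and RNA quality in the differences below was not tested. In sorted bulk samples, fewer cells of a type and less RNA per cell cannot be told apart.

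Signals are intensities scaled so that the trimmed mean of each array is 500. Fold changes were fitted with limma on log2(signal + 32), each chip by itself, and adjusted p-values (Benjamini-Hochberg) run over the probe sets of both chips with a threshold of 0.05. A probe set was tested where its signal was over 100 on at least 2 of 11 arrays, which left 90 of the 91 members. The exception was Cox8b, a subunit isoform of heart and skeletal muscle, whose signal passed 100 on 1 array of 11. Levels of different probe sets have different scales and were not compared with each other.

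Most of these genes differed by less than 2-fold between cells with both markers and cells with neither. Between +/+ and -/- samples 6 of the 90 tested members were higher and 6 were lower in +/+, which is 6.67% in each direction. Over all 16990 genes tested 12.9% were higher and 9.03% were lower. The median log2 fold change of the members was -0.10, against -0.08 over all genes, and the middle 50% of the members lay between -0.48 and 0.30, against -0.68 and 0.64 over all genes. The fitted change was under 2-fold for 79 of the 90 members (87.8%) and for 67.7% of all genes. The 95% interval of the change lay wholly within 2-fold for 43 members (47.8%) and for 13.3% of all genes. The median standard error was 0.27 for the members and 0.44 for all genes. The +/+ and -/- samples did not overlap for 12 members higher and 19 lower in +/+, and for 3438 and 3455 of all genes.

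By the probe set that represents each gene, the catalytic core of complex I did not pass the test. The 6 core subunits measured, which carry or line the flavin and iron-sulphur clusters (Ndufs1, Ndufs3, Ndufs7, Ndufs8, Ndufv1 and Ndufv2), had log2 fold changes between -0.37 (Ndufv1) and 0.40 (Ndufs8) in +/+ against -/-. All 6 had a 95% interval within 2-fold, both in +/+ and in +/- against -/-. Ndufv2, for one, had signals of 3821, 3735 and 2881 in +/+, 3325 and 3759 in CPGSE, 3246, 3864 and 3696 in +/-, and 3163, 3653 and 4365 in -/- samples. These groups overlap. Other probe sets of core genes did pass. Of 3 tested for Ndufv1, the flavin-binding subunit, 1 had 641, 1054 and 1652 in +/+ against 2589, 2542 and 2292 in -/- samples (log2 change -1.22, limma adjusted p = 0.0117) and gave -1.06 in +/- against -/- (adjusted p = 0.0291). Of 6 for Ndufs8, 1 passed in +/- against -/- (log2 change 1.10, adjusted p = 0.0374). Ndufv3, a small subunit of the module that oxidizes NADH, had a log2 fold change of 0.05 in +/+ against -/-.

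**Figure D1:**
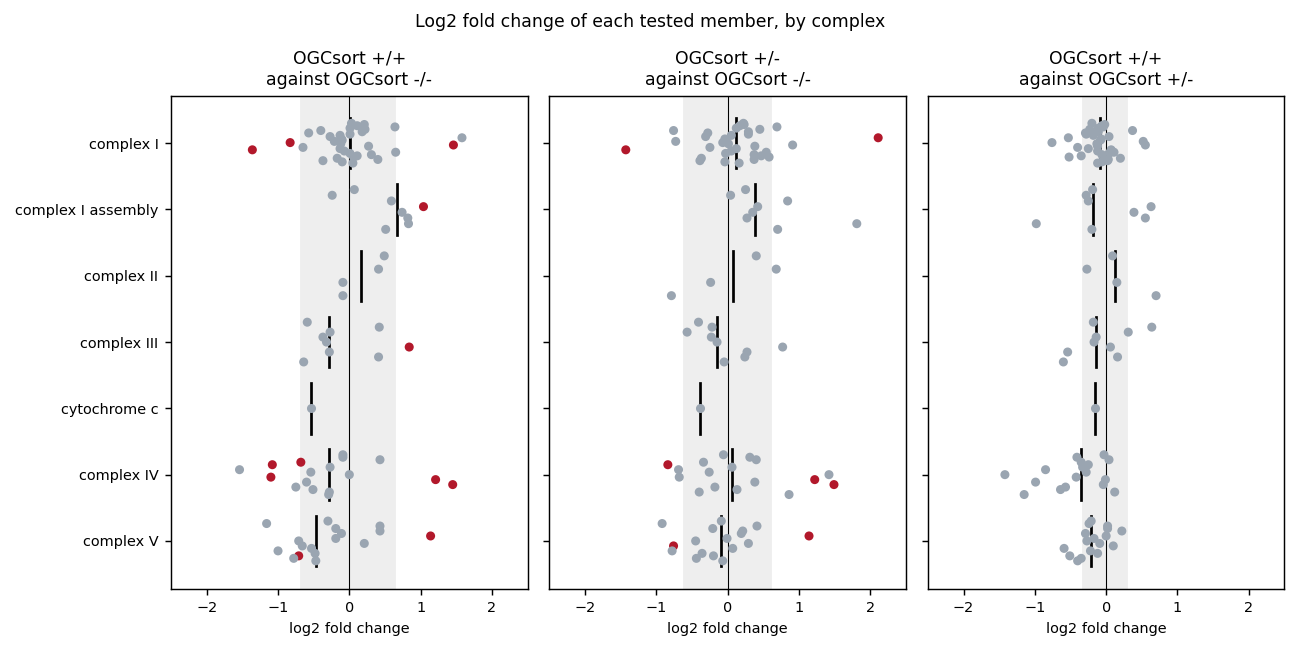
Log2 fold change (x axis) of each of the 90 tested members, 1 point a gene, by complex (y axis), in 3 comparisons. Red points passed the limma test at an adjusted p under 0.05, black bars are the medians of the complexes and the grey band holds the middle 50% of all genes tested. Called members lie on both sides of 0 in the first 2 panels and the last has none.

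Outside the core, accessory subunits of complex I moved in both directions. Ndufb9, an accessory subunit of the membrane arm, had signals of 1834, 1789 and 2276 in +/+, 1944 and 2288 in CPGSE and 2571, 1489 and 1679 in +/- samples, against 4718, 5236 and 5233 in -/- samples. Every sample with CD45 was below every -/- sample. Ndufb9 was 2.56-fold lower in +/+ than in -/- (log2 change -1.36, SE 0.24, limma adjusted p = 0.0013), and its second tested probe set gave -1.29 (adjusted p = 0.00183). Its 0.0013 was the smallest adjusted p among the members in that comparison.

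Ndufb5, an accessory subunit of the same arm, ran the other way. Its signal was 1736, 1893 and 1323 in +/+, 1808 and 1817 in CPGSE and 499, 1399 and 1900 in +/-, against 870, 399 and 532 in -/- samples. All +/+ samples were above all -/- samples, while +/- sample 1 lay among the -/- samples. Its signal was 2.76-fold higher in +/+ than in -/- (log2 change 1.46, SE 0.41, limma adjusted p = 0.0259), and its other probe set gave 2.07 (adjusted p = 0.0219). In +/- against -/- the log2 fold change was 0.91 (adjusted p = 0.175), and 2.28 for the other probe set (adjusted p = 0.0147).

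Another accessory subunit, Ndufb3, had signals of 700, 660 and 724 in +/+ and 1116 and 808 in CPGSE, against 1389, 1060 and 1353 in -/- samples. It was 1.78-fold lower in OGCsort +/+ than in -/- (limma adjusted p = 0.0364), but CPGSE sample 4 reached the -/- range. With CPGSE taking the place of OGCsort +/+ the log2 fold change was -0.39 (limma adjusted p = 0.361).

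Ndufb1, a small accessory subunit of the membrane arm, was low on these chips. Its signal was 273, 290 and 368 in +/+, 143 and 249 in CPGSE and 417, 362 and 635 in +/-, against 262, 62.6 and 20.8 in -/- samples. Against -/- it was 4.32-fold higher in +/- (log2 change 2.11, SE 0.53, limma adjusted p = 0.015). Since 2 of the -/- samples were under 100, the size of this difference is uncertain. For the same reason Ndufb1 passed the signal filter only with the help of samples with CD45, which favoured a call as higher. Without -/- sample 4 the limma adjusted p was 0.000398. No fold is given for that fit, since both -/- samples left in it were under 100. The fitted ratio of +/+ to -/- was 2.99 and did not pass (adjusted p = 0.0543). The -/- samples spread widely, and sample 4 lay above both CPGSE samples and close to the +/+ samples.

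The 8 assembly factors, which build complex I and are not part of it, had a median log2 fold change of 0.67 in +/+ and 0.38 in +/- against -/-. In +/+ against -/- 7 of the 8 were above 0, as were 7941 of all 16990 genes. Of the 8 factors 1 passed the test. That was Ndufaf4, an early assembly factor, with signals of 869, 920 and 577 in +/+, 897 and 825 in CPGSE and 478, 440 and 558 in +/-, against 437, 303 and 349 in -/- samples. All +/- and +/+ samples were above the highest -/- sample. Ndufaf4 was 2.06-fold higher in +/+ than in -/- (SE 0.29, limma adjusted p = 0.023). In +/- against -/- its log2 fold change was 0.42 (adjusted p = 0.4). Ndufaf7, a methyltransferase acting on a core subunit, had signals of 358, 134 and 166 in +/- against 50.5, 18 and 39.6 in -/- samples. The -/- values are all under 100 and carry no fold, and the difference did not pass (adjusted p = 0.0587). Ndufaf6 had signals of 78.6, 88.1 and 309 in +/+ against 42, 103 and 50.3 in -/- samples. Both Ndufaf6 and Ndufaf7 passed the signal filter only with the help of samples with CD45, which favoured values above 0. They are counted in the medians and among the 7 above.

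No subunit of complex II, succinate dehydrogenase, passed the test in any comparison. Sdhb, the iron-sulphur subunit, had signals of 2229, 2452 and 3235 in +/+ and 2758, 3525 and 3197 in +/-, against 2226, 1698 and 1981 in -/- samples. Its log2 fold change was 0.41 in +/+ (95% interval -0.08 to 0.89) and 0.68 in +/- against -/- (limma adjusted p = 0.063). The flavin subunit Sdha and the membrane anchors Sdhc and Sdhd had log2 fold changes of 0.49, -0.09 and -0.09 in +/+ against -/-.

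In complex III, by the probe sets that represent the genes, 1 of 9 members passed the test in +/+ against -/- and none in the other comparisons. Uqcrc2, a core protein on the matrix side, had signals of 5232, 6576 and 4006 in +/+, 5449 and 6484 in CPGSE and 4342, 5125 and 5428 in +/-, against 2155, 2744 and 4040 in -/- samples. The groups met, since +/+ sample 6 was just below -/- sample 8. Uqcrc2 was 1.78-fold higher in +/+ than in -/- (log2 change 0.84, SE 0.27, limma adjusted p = 0.0448), but its other probe set gave -0.04 (adjusted p = 0.949). Without -/- sample 4 the log2 fold change was 0.63 (adjusted p = 0.121). The 2 probe sets of Uqcrh disagreed in +/+ against -/-. The one that represents it, on chip B, gave 0.41 (adjusted p = 0.336). The other, on chip A, passed as lower, with 1289, 867 and 1062 in +/+ against 2059, 2352 and 2389 in -/- samples.

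By the probe sets that represent them, the electron carriers Cyc1 and Cycs had lower signals in +/+ without passing the test. Cyc1, the cytochrome c1 subunit, had signals of 3260, 3633 and 3937 in +/+ against 5641, 6272 and 4531 in -/- samples, a log2 fold change of -0.59 (limma adjusted p = 0.0779). Cycs, cytochrome c itself, had 3610, 4399 and 3553 in +/+ against 5922, 4868 and 6075 in -/- samples, a log2 fold change of -0.54 (adjusted p = 0.0973). In neither gene did the groups of these probe sets overlap, which was common over all genes, as given above. The 4 tested probe sets of Cycs did not have 1 sign. Another had 1125, 1157 and 968 in +/+ and 1792, 1336 and 1342 in +/-, against 915, 735 and 708 in -/- samples, and was higher in +/- than in -/- (log2 change 0.89, adjusted p = 0.0209). The partner core protein Uqcrc1 and the Rieske iron-sulphur protein Uqcrfs1 had log2 fold changes of -0.32 and -0.28, both with a 95% interval that holds 0.

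In complex IV, cytochrome c oxidase, related genes moved in opposite directions. Cox7a2 is the widespread isoform of subunit 7a. Cox7a2l is a related protein found in supercomplexes, where it joins complex III to complex IV. Cox7a2 had signals of 6066, 6204 and 4816 in +/+, 7126 and 6866 in CPGSE and 7113, 8452 and 7219 in +/-, against 11346, 11071 and 14306 in -/- samples. Cox7a2l had signals of 12303, 13357 and 9891 in +/+, 10096 and 9014 in CPGSE and 10877, 13614 and 11289 in +/-, against 6997, 4820 and 3858 in -/- samples. In both genes every sample with CD45 lay on the same side of every -/- sample.

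Cox7a2 was 2.14-fold lower in +/+ than in -/- (log2 change -1.10, SE 0.22, limma adjusted p = 0.00312), with -0.94 for its other probe set (adjusted p = 0.00678). In +/- against -/- it was -0.68 (adjusted p = 0.0534). Cox7a2l was 2.31-fold higher in +/+ than in -/- (log2 change 1.21, SE 0.25, adjusted p = 0.00445). In +/- the difference from -/- was 2.33-fold (log2 change 1.22, adjusted p = 0.00482). All 3 Cox7a2l probe sets were higher in both comparisons, with log2 fold changes of 1.21, 1.37 and 1.37 in +/+ against -/-, the last with an adjusted p of 0.0704.

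The signal of Cox7a2l divided by that of Cox7a2 was 2.03, 2.15 and 2.05 in +/+, 1.42 and 1.31 in CPGSE and 1.53, 1.61 and 1.56 in +/-, against 0.617, 0.435 and 0.27 in -/- samples. Only differences in this ratio between samples can be read, since the probe sets have different scales. It was highest in the +/+ samples and lowest in the -/- samples. The low ratio in -/- follows from the values of both genes given above and is no further result. Among the -/- samples, sample 4 had the highest ratio and also the most Ptprc.

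Cox6a1, the widespread isoform of subunit 6a, was also lower in cells with CD45. Its signal was 11738, 13748 and 11173 in +/+, 10949 and 13432 in CPGSE and 13246, 14870 and 15281 in +/-, against 22918, 24666 and 30381 in -/- samples. No sample with CD45 reached the lowest -/- sample. It was 2.12-fold lower in +/+ (log2 change -1.08, SE 0.23, limma adjusted p = 0.00459) and 1.79-fold lower in +/- (log2 change -0.84, adjusted p = 0.0244) than in -/-. Its second probe set gave -1 (adjusted p = 0.00819) and -0.57 (adjusted p = 0.124).

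The start regions of Cox7a2, Cox7a2l and Cox6a1 are shown because these subunits of 1 complex moved in opposite directions. Each window runs from 250 bases before to 50 bases after the annotated start, 5′ to 3′ on the gene's strand, from RefSeq on GRCm38.p6. Capitals mark matches, on either strand, to GCGCATG (part of an NRF1 site), CCGGAAG (an ETS or GABP site) or AAGATGGC (a YY1 site), motifs of factors known to act on nuclear genes of the respiratory chain.
Cox7a2, chr9:79759804-79760103, minus strand: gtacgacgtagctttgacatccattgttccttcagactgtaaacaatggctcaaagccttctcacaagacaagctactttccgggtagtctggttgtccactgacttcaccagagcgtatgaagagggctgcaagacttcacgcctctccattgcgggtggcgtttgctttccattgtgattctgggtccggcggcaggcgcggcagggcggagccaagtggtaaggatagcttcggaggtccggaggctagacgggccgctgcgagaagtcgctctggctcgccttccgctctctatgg
Cox7a2l, chr17:83514284-83514583, minus strand: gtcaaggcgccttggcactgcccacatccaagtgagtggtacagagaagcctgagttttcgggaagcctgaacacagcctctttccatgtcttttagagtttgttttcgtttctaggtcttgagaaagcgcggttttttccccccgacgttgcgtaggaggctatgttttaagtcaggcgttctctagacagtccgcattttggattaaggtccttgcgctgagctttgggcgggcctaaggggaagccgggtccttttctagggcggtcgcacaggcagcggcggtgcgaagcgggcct
Cox6a1, chr5:115348909-115349208, minus strand: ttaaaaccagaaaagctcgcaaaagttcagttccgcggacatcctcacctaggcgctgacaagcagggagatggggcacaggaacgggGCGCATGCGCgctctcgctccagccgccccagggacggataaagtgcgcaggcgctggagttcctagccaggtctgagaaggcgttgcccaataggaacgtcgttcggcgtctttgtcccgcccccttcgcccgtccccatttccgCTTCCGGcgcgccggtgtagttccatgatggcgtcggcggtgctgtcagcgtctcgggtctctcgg

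The Cox6a1 window held overlapping matches to the NRF1 letters, 2 in all, and 1 ETS match. The Cox7a2 and Cox7a2l windows held none of the 3 motifs, which says only that these letters are not in these windows. RefSeq windows were matched for 75 of the 91 members, 80 windows in all. The NRF1 letters were in 18.8% of the 80 and in 3.91% of all 32851 windows. The ETS letters were in 23.8% and 8.86%, and the YY1 letters in 12.5% and 2.75%. A match is a description of the sequence and not a binding site.

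**Figure D2:**
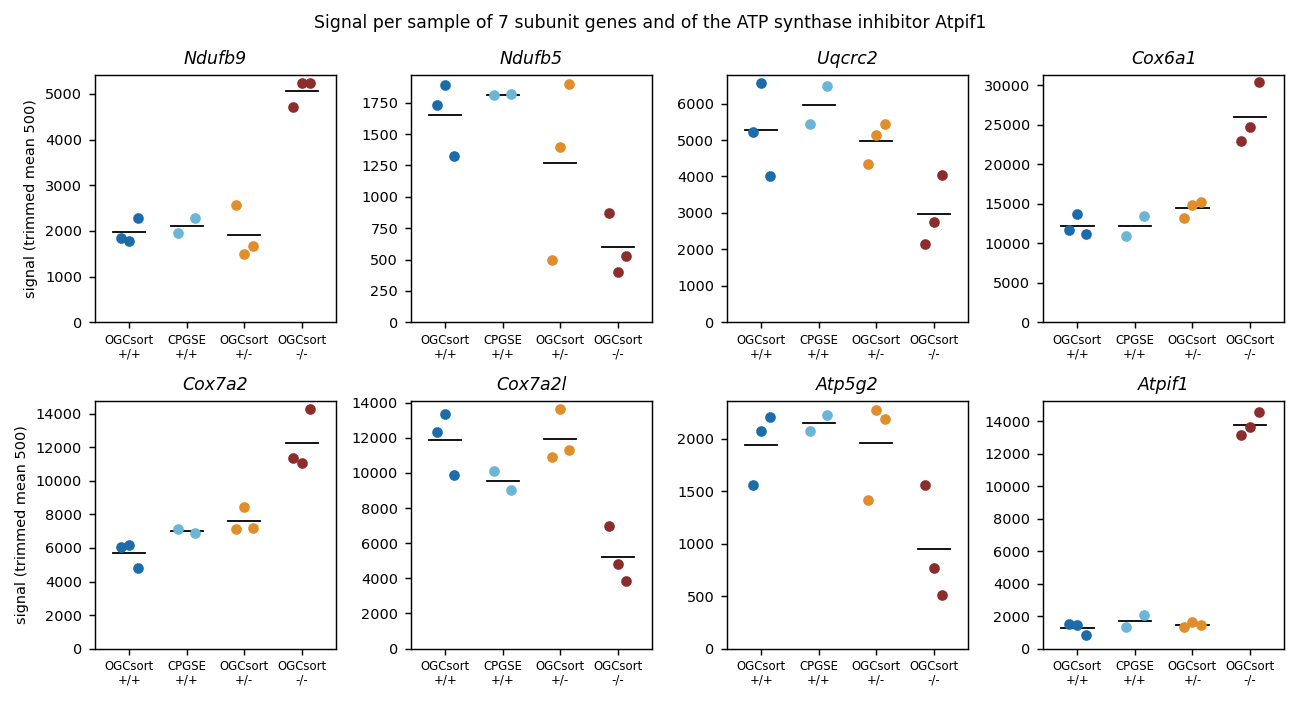
Signal (y axis, linear from 0, arrays at a trimmed mean of 500) of 7 subunit genes and of the inhibitor Atpif1 in each sample (points), by sort group (x axis), with a black bar at the group mean. Ndufb9, Cox6a1, Cox7a2 and Atpif1 are above all other samples in the 3 -/- samples, and Cox7a2l is below them.

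Further complex IV subunits passed the test at smaller or less even differences. Cox5b, a zinc-binding subunit, had signals of 16523, 17651 and 17160 in +/+, 14040 and 14877 in CPGSE and 20450, 23036 and 21927 in +/-, against 27914, 26560 and 28110 in -/- samples. The 4 groups did not overlap with the -/- samples or with each other, and the order was CPGSE, +/+, +/- and -/- from low to high. Cox5b was 1.61-fold lower in +/+ than in -/- (log2 change -0.68, limma adjusted p = 0.0477), but of its 6 tested probe sets 1 passed and 5 had this sign. Without -/- sample 4 its adjusted p was 0.0699.

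Cox7c, a small subunit at the edge of the complex, was measured by a dim probe set. Its signal was 199, 375 and 343 in +/+, 265 and 252 in CPGSE and 322, 311 and 282 in +/-, against 126, 149 and 28.9 in -/- samples. It was 2.73-fold higher in +/+ (limma adjusted p = 0.0415) and 2.8-fold higher in +/- (adjusted p = 0.0422) than in -/-. All samples with CD45 were above the -/- samples, of which sample 8 was under 100.

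Cox4i1 and Cox5a, which sit close to the catalytic centre, did not pass the test by the probe sets that represent them. Cox4i1, the common subunit 4, had log2 fold changes of -0.09 in +/+ (95% interval -0.54 to 0.36) and -0.06 in +/- against -/-, and Cox5a, its neighbour, 0.43 (95% interval -0.06 to 0.92) and 0.40. Cox5a had 2 further probe sets, both with this sign. The first gave 1.20 in +/- against -/- (limma adjusted p = 0.0103) and the other 0.84 in +/+ against -/- (adjusted p = 0.0389).

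Isoforms known from other tissues were measured too. Cox7a1, the heart and muscle form of subunit 7a, passed a signal of 100 on 2 of 11 arrays, +/- samples 1 and 9 with 198 and 122. Cox6b2, known from testis, had 118, 14.1 and 161 in +/+ against 245, 469 and 206 in -/- samples (log2 change -1.54, limma adjusted p = 0.0953), and Cox7b2 passed 100 on 7 arrays. The common partners Cox6b1 and Cox8a had log2 fold changes of -0.27 and -0.75 in +/+ against -/- (adjusted p = 0.0865 for Cox8a). Another of the 3 probe sets of Cox8a was lower both in +/+ (log2 change -0.92, adjusted p = 0.012) and in +/- (-1.13, 0.00371) than in -/-. Cox8c, the testis form of subunit 8, had signals of 368, 1088 and 1002 in +/+, 1155 and 489 in CPGSE and 1317, 922 and 1335 in +/-, against 1486, 1162 and 703 in -/- samples. These groups overlap, and its 2 probe sets gave -0.51 and 0.33 in +/+ against -/- (adjusted p = 0.454 and 0.628).

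Cox4i2, the form of subunit 4 known from lung, had a log2 fold change of -0.09 (95% interval -0.92 to 0.73) in +/+ against -/-. Ndufa4, once counted to complex I and now to complex IV, had -0.28 (limma adjusted p = 0.462). Its relative Ndufa4l2, known to respond to low oxygen, had a signal of 1012 in +/- sample 1, against 88.1 to 288 in the other samples.

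In ATP synthase most members were below 0 in +/+ against -/-, though few passed the test. Of 17 tested members 4 had a log2 fold change above 0 in +/+ against -/-, as had 7941 of all 16990 genes. The median was -0.47 in +/+ and -0.09 in +/- against -/-. The 5 subunits of the catalytic F1 head, Atp5a1, Atp5b, Atp5c1, Atp5d and Atp5e, had log2 fold changes of -0.30, -1.16, 0.43, -0.19 and 0.43 in +/+ against -/-. None passed.

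Atp5b, the catalytic beta subunit, varied widely within the +/+ group. Its signal was 1099, 2026 and 4152 in +/+, 2921 and 3275 in CPGSE and 1444, 3937 and 2719 in +/-, against 5790, 4744 and 3896 in -/- samples. The groups overlapped through +/+ sample 6 (limma adjusted p = 0.0784). The +/+ samples with the lower values, 1 and 5, were also those with the higher Gapdh 3' to 5' ratios, 24.8 and 16.84 against 9.14 in sample 6.

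Atp5g2, one of the genes that encode the same mature c subunit of the membrane ring, was higher in cells with CD45. Its signal was 1557, 2071 and 2203 in +/+, 2078 and 2223 in CPGSE and 1420, 2273 and 2186 in +/-, against 1561, 767 and 514 in -/- samples. All but sample 4 of the -/- group were below every other sample. Against -/-, Atp5g2 was 2.21-fold higher in +/+ (log2 change 1.14, SE 0.35, limma adjusted p = 0.0359), with 2.2-fold in +/- (adjusted p = 0.0416). Without -/- sample 4 both log2 fold changes were 1.56. Its second tested probe set gave 0.06 and 0.53. The partner genes Atp5g1 and Atp5g3 had log2 fold changes of -0.11 and -0.19 in +/+ against -/-.

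Atp5mpl, a small protein associated with the membrane part, had signals of 2331, 2484 and 1998 in +/+ against 3935, 3331 and 3921 in -/- samples, and was 1.63-fold lower in +/+ (limma adjusted p = 0.0412). Atp5j2, the f subunit of the membrane part, had 4291, 5287 and 3609 in +/- against 7215, 6706 and 8349 in -/- samples, and was 1.7-fold lower in +/- (adjusted p = 0.0448). In neither case did the groups overlap. Without -/- sample 4 the adjusted p was 0.0703 for Atp5mpl and 0.0534 for Atp5j2. Atp5h did not pass by the probe set that represents it (log2 change -0.71 in +/+ against -/-, limma adjusted p = 0.0722). Its other probe set passed as lower in both +/+ and +/-. It had 1365, 1482 and 1714 in +/+ and 1566, 1769 and 1629 in +/-, against 2379, 2915 and 2737 in -/- samples.

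The inhibitor of ATP synthase changed far more than any subunit. Atpif1 encodes the protein that blocks the reverse, ATP-consuming action of the enzyme, and it is known to be needed for haem synthesis in red cell precursors. By its symbol it is not one of the 91 genes. Its signal was 1516, 1447 and 844 in +/+, 1324 and 2067 in CPGSE and 1303, 1610 and 1478 in +/-, against 13159, 13663 and 14571 in -/- samples.

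The -/- samples were thus close together and far above all the others. Atpif1 was 11-fold lower in +/+ (log2 change -3.45, SE 0.24, limma adjusted p = 7.6e-07) and 9.27-fold lower in +/- (log2 change -3.21, adjusted p = 1.56e-06) than in -/-. Of its 3 probe sets another gave -1.72 and -2, and the dimmest, with a mean signal of 125, gave -0.11 and -0.54 (adjusted p = 0.917 and 0.573). With the wash run as a block, as described next, the log2 fold changes were -3.19 and -2.42 and both passed (adjusted p = 6.5e-06 and 0.0068).

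**Figure D3:**
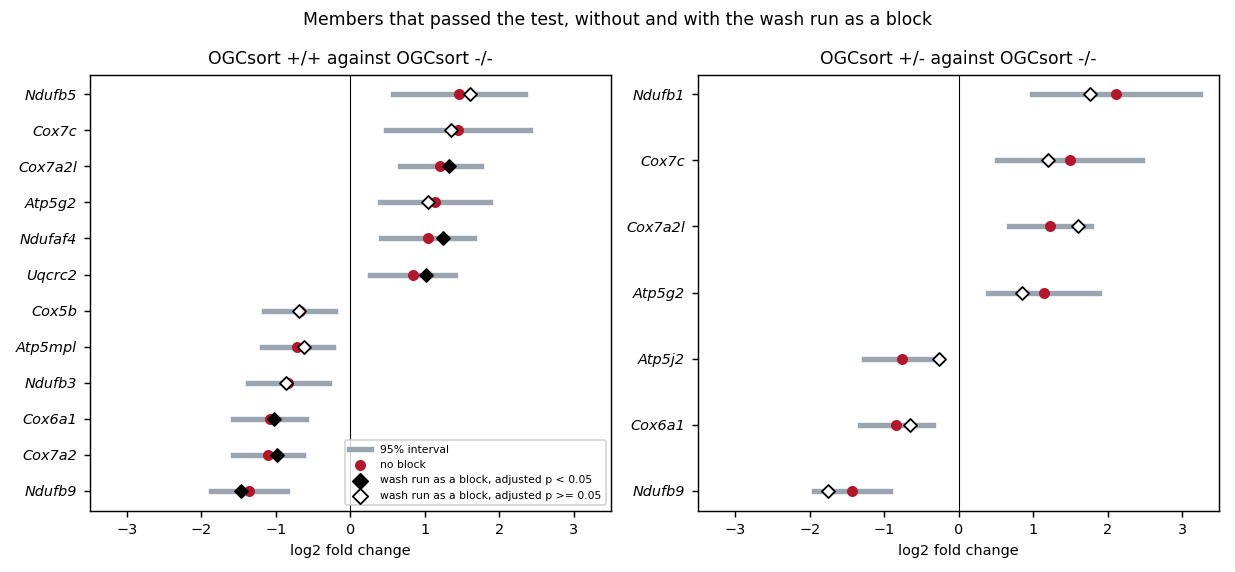
Log2 fold change (x axis) of the 12 members called in +/+ against -/- and the 7 called in +/- against -/- (y axis), without a block (red points, grey bars for the 95% interval) and with the wash run as a block (diamonds, filled where the adjusted p is under 0.05). In the first panel 6 diamonds are filled and in the second none. Wash runs were inferred from recorded hybridization times.

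By gaps between their recorded hybridization times, the arrays fell into runs that did not hold all groups. Such a run is called a wash run here. The name is only a label for arrays close in recorded time. On chip A, the chip of all called members, one run held 2 +/+ and 3 -/- samples and another 1 +/+ and 3 +/- samples. With the run as a block, the value for +/+ against -/- is therefore that within the first run. There 3 members were higher and 5 lower, against 7.77% and 5.74% of all genes, and 6 of the 12 calls held. These were Ndufb9 (log2 change -1.46, limma adjusted p = 0.00414), Cox7a2l (1.33, 0.00979), Cox7a2 (-0.98, 0.0199), Cox6a1 (-1.02, 0.0233), Ndufaf4 (1.24, 0.0235) and Uqcrc2 (1.02, 0.0409).

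Within that run Atp5b (log2 change -1.65, limma adjusted p = 0.0193) and Atp5o, the stalk subunit OSCP (-1.02, 0.0386), also passed. Atp5o had signals of 1209, 1394 and 2171 in +/+ against 3661, 2331 and 2236 in -/- samples, and without the block -0.78 (adjusted p = 0.0703). In both genes the +/+ sample outside the run, sample 6, had the highest signal of the +/+ samples. The other 6 calls had an adjusted p between 0.0534 (Ndufb5) and 0.147 (Atp5mpl) with the block.

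In +/- against -/- 4 members were higher and 3 lower, 4.44% and 3.33% of the 90, against 11% and 7.62% of all genes. Of these 7, Atp5g2, Cox7a2l and Cox7c were also higher, and Cox6a1 and Ndufb9 also lower, in +/+ against -/-. Both comparisons use the same -/- samples. Ndufb9 had a log2 fold change of -1.43 (SE 0.24, limma adjusted p = 0.00113), and its other tested probe set -1.45 (adjusted p = 0.000973). The members' median was 0.05, against -0.03 over all genes, and the 95% interval lay within 2-fold for 53 members (58.9%) and for 14.7% of all genes.

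No chip A run held both +/- and -/- samples. A fit with the run as a block links them only through the +/+ samples, and with it 0 of the 90 members passed, 0 of the 7 calls held, and 0.759% of all genes were higher and 1.17% lower. Within this fit Ndufb9 had a log2 fold change of -1.75 (limma adjusted p = 0.0733) and Cox7a2l 1.60 (adjusted p = 0.126), both larger than without the block. For these 7 members wash run and group cannot be told apart by samples of the same run.

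Among cells with CD45, no member passed the test between those with and without Sca1. In +/+ against +/- limma called 0 of the 90 higher and 0 lower, against 0.106% and 0.0589% of all genes. At an unadjusted p under 0.05 there were 7 of the 90 members and 1318 of all 16990 genes, which is a like share. All other settings tried also called 0 members. The median log2 fold change was -0.13, against -0.02 over all genes. In complex IV 15 of 17 members were below 0, with a median of -0.35, and in complex V 12 of 17, with a median of -0.21. The members of complex IV include Cox7a1, which passed the signal filter only through +/- samples. On chip A 1 +/+ sample shared a wash run with the 3 +/- samples, and the other +/+ samples did not. The part of the run in these medians was not tested. The 95% interval lay within 2-fold for 60 members (66.7%) and for 28.8% of all genes.

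The 6 core subunits of complex I had log2 fold changes between -0.06 (Ndufs3 and Ndufv2) and 0.20 (Ndufs7) in +/+ against +/-. Of the F1 head, Atp5b had -0.24 and Atp5d 0.02, and Cyc1 and Cycs had -0.18 and -0.15. Sdhd, an anchor of complex II, had 0.70 (unadjusted p = 0.0328, limma adjusted p = 0.686).

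The smallest unadjusted p of this comparison was that of Ndufb3, with signals of 700, 660 and 724 in +/+ against 1506, 1258 and 897 in +/- samples (log2 change -0.76, limma adjusted p = 0.471). These values do not overlap, as was so for 2 members higher and 11 lower, and for 1288 and 1234 of all genes. Cox7a1 had 3.41, 42 and 23.9 in +/+, all under 100, against 198, 47.6 and 122 in +/- samples (adjusted p = 0.676). Neutrophil markers also differed between these groups, with a summed signal of 7962 to 33577 in +/+ and 106162 to 434628 in +/- samples over all 10 markers, and so did the MHC class II genes given above. Their part in the member values was not tested.

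The +/+ sets sorted under different names were compared as well. In OGCsort +/+ against CPGSE +/+ limma called 0 of the 90 members higher and 0 lower, and 0.0% of all 16990 genes in each direction. With array weights 1 member was called higher. At an unadjusted p under 0.05 there were 3 of the 90 members and 1096 of all genes, so the members' share was not above that of all genes. The 3 were Atp5d, Ndufc2 and Ndufaf5. Atp5d, the delta subunit of the F1 head, had signals of 7855, 8267 and 7523 in OGCsort against 4012 and 4284 in CPGSE samples (log2 change 0.92, SE 0.21, adjusted p = 0.365). Ndufc2, an accessory subunit of complex I on chip B, had 4044, 5762 and 3985 in OGCsort against 8321 and 11759 in CPGSE samples (log2 change -1.12, SE 0.32, adjusted p = 0.497).

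In both genes the sets did not overlap by these probe sets. The same was so for 11 members higher and 19 lower in OGCsort, and for 2644 and 2233 of all genes. The second probe set of Atp5d gave 0.38. The brighter of the chip A probe sets of Ndufc2 gave -0.08, with 4572, 5477 and 3692 in OGCsort against 5220 and 4377 in CPGSE samples, which overlap. The CPGSE arrays formed a wash run of their own on each chip, so run and set cannot be told apart. With CPGSE taking the place of OGCsort +/+, 9 of the 12 calls against -/- held, and the exceptions were Atp5mpl, Cox7c and Ndufb3. Cox7a2l was then 1.88-fold higher (limma adjusted p = 0.0314) and Cox7a2 1.73-fold lower (adjusted p = 0.0268) than in -/- samples.

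**Figure D4:**
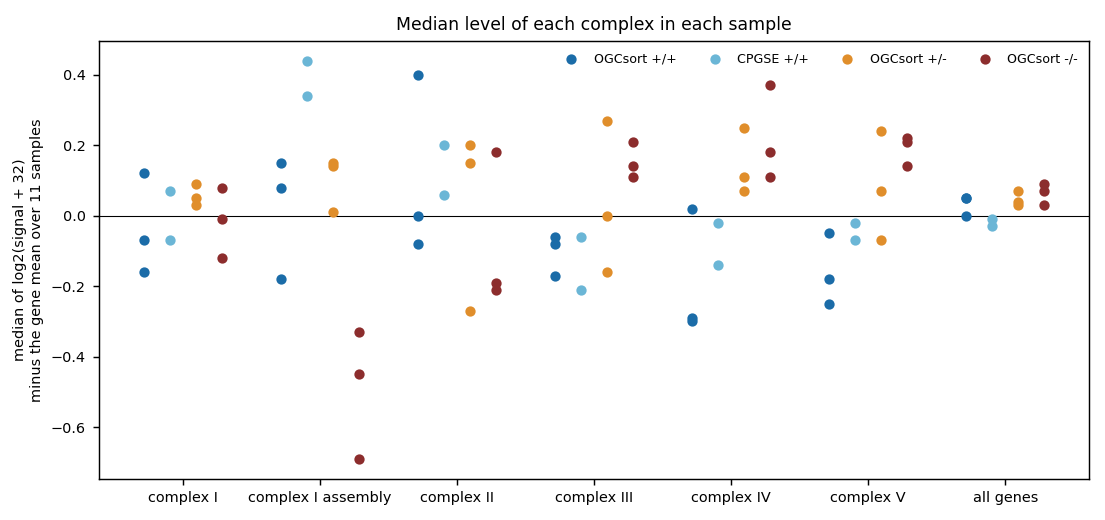
Median over the tested members of each complex, and over all genes, of log2(signal + 32) minus the gene's mean over the 11 samples (y axis), 1 point a sample, by complex (x axis) and sort group (colours). Complex I is level across groups, and complexes III, IV and V are lower in +/+ than in -/- samples. The assembly factors, with Ndufaf6 and Ndufaf7 counted, are lowest in the 3 -/- samples.

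The complexes differed in their sample medians. For complex I the centred median was -0.16, 0.12 and -0.07 in +/+ against 0.08, -0.12 and -0.01 in -/- samples, and the groups overlapped. For complex V it was -0.25, -0.05 and -0.18 in +/+ and -0.07, 0.24 and 0.07 in +/-, against 0.14, 0.21 and 0.22 in -/- samples. For complex IV it was -0.30, 0.02 and -0.29 in +/+ and 0.25, 0.11 and 0.07 in +/-, against 0.18, 0.11 and 0.37 in -/- samples. In both complexes the +/+ and -/- samples did not overlap, while the +/- samples overlapped with the -/- samples. For the assembly factors it was -0.18, 0.15 and 0.08 in +/+ and 0.14, 0.15 and 0.01 in +/-, against -0.33, -0.69 and -0.45 in -/- samples. Over all genes the medians were 0.05, 0.05 and -0.00 in +/+ and 0.07, 0.09 and 0.03 in -/- samples. No test was made of these medians. Those of the assembly factors include Ndufaf6 and Ndufaf7, which passed the signal filter only with the help of samples with CD45.

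The neighbouring pathways were read from lists chosen by function. Of 12 tested genes of the citric acid cycle 4 were higher and 1 was lower in +/+ than in -/- (limma), and 3 were higher in +/- than in -/-. All 3 subunit genes of succinyl-CoA ligase were among them, the enzyme that makes succinate and whose substrate also feeds haem synthesis. Suclg1, its shared alpha subunit, had a mean signal of 1531 in +/+ and 1184 in +/-, against 523 in -/- samples, and was 2.82-fold higher in +/+ than in -/- (adjusted p = 0.00107). Suclg2 was 2.48-fold (adjusted p = 0.0032) and Sucla2 2.01-fold (adjusted p = 0.0159) higher. Fh1, fumarase, was 2.07-fold higher (adjusted p = 0.0176) and Ogdh, of the oxoglutarate dehydrogenase complex, 1.76-fold lower (adjusted p = 0.0374). With the wash run as a block 1 of the 12 was higher and 0 lower.

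Of 33 tested assembly factors of complexes III to V, 7 were higher and 0 were lower in +/+ than in -/- (limma), with a median log2 fold change of 0.39. They included Cox10, which makes haem o for complex IV (3.05-fold, adjusted p = 0.0111), Coa5 (3.03-fold, adjusted p = 0.0026), Bcs1l, which inserts the Rieske protein into complex III (adjusted p = 0.0142), and Atpaf2, which assembles the F1 head (adjusted p = 0.00382). The mean signal of Atpaf2 was 255 in +/+ and 152 in +/-, against 41.2 in -/- samples. For Bcs1l and Atpaf2 no fold is given, since every -/- sample was under 100. Both are among the 7 but passed the signal filter only through samples with CD45, so the filter itself favoured a call as higher. In +/- against -/- 3 of 33 were higher, Cox10, Coa5 and Atpaf2, where 11% of all genes were. With the wash run as a block 4 were higher in +/+ than in -/- and 0 in +/- than in -/-.

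Among 14 tested genes of other electron entry and ubiquinone synthesis 2 were higher in +/+ than in -/- (limma), Gpd2 and Coq2, and 2 in +/- than in -/-, Coq2 and Coq7. With the wash run as a block 0 passed in either comparison. Of 12 genes of the outer membrane and of protein import 2 were higher in both comparisons, the receptor Tomm20 (2.94-fold in +/+, adjusted p = 0.000758) and the chaperonin partner Hspe1 (2.97-fold, adjusted p = 0.00578). Of 16 genes of mitochondrial biogenesis and DNA 2 were higher and 1 lower in +/+ than in -/-. Ssbp1, which coats single-stranded mitochondrial DNA, was 2.59-fold higher (adjusted p = 0.00121), Twnk, the mitochondrial helicase, 3.96-fold higher (adjusted p = 0.00516) and Polrmt, the mitochondrial RNA polymerase, 1.75-fold lower (adjusted p = 0.0489). With the wash run as a block this list had 2 higher and 0 lower, so the call of Polrmt was lost.

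Of 7 tested mitophagy genes 1 was lower in +/+ than in -/- (limma), the kinase Ulk1, with a mean signal of 328 in +/+ and 380 in +/-, against 934 in -/- samples (2.73-fold, adjusted p = 0.0117). In +/+ against +/- none of these lists had a gene that passed the limma test. An unadjusted p under 0.05 was found for 7 of their genes, and for 1318 of all 16990 genes. The 12.9% and 9.03% of all genes called in +/+ against -/-, and the 11% and 7.62% in +/- against -/-, are the background of these counts too, and the -/- group of the erythroid and dividing-cell markers given above is the same in all of them.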

How the data were processed

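RNA of 11 sorted mouse bone marrow samples was measured on 22 Affymetrix arrays, 1 of each chip a sample. The deposited values are linear signal intensities per probe set, made by the authors with MAS5 per the submitters' processing notes, version not given in the sources used here. Run records (text), deposited with each array, gave the station and hybridization time per the file headers. What is called a wash run was inferred from gaps between these times, and on chip B the block was also split by station. Each array was rescaled to a mean of 500 after 2% was trimmed from each end. Controls were dropped, and for the 100 probe sets that the chips share, chip A was used (median ratio of chip B to chip A 2.86), so the rule of the highest mean can favour chip B; 9 members are represented by it.

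Gene names come from the probe tables, with 34741 of 34945 single-gene probe sets found in RefSeq (GRCm38.p6); 10 probe sets that name a member beside other genes were not used. R 4.3.3 and limma 3.58.1 (lmFit, eBayes with a mean-variance trend) were used. Comparisons within OGCsort used 9 samples and that with CPGSE all 11. A simulation of +/+ against -/- over 40405 probe sets held 100 true changes of each of the following sizes. Of those with an absolute log2 change of 1, 1% were recovered, and of those with 2, 33%. The mean estimates were 0.999 and 2.05, with 1 false call. All other probe sets of the simulation held no true change. In the data 12.9% of all genes were called higher and 9.03% lower in this comparison. With few true changes the adjustment is stricter, so the recovered shares do not say how many changed members the test would find. A gene that did not pass the test may still differ between groups. The number of arrays limits the precision. The alternatives were the pseudocount (1, 128), the filter (none, or 200 on 3 arrays), quantile normalization, robust eBayes or eBayes with no trend, array weights, adjusting each chip by itself, sort number or wash run as a block, all 11 samples, other probe sets, CPGSE in place of OGCsort +/+, and leaving out each sample.

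The members and lists were chosen with earlier results of these data known. Named are all members past the threshold, the core subunits, tissue isoforms with their partners, and listed pathway genes. Those outside these rules, named after their values were seen, are Ndufaf6, Ndufaf7, Ndufaf5, Ndufc2, Uqcrh, Atp5h, Atp5o and Cox7b2. A rule naming the brightest and dimmest member of a complex was not applied, since probe set levels are not comparable. Where groups are said not to overlap, no sample of one reaches the other. In +/- against -/- this held for 10 members higher and 11 lower, and for 2993 and 2933 of all genes.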

Additional observations from a re-analysis of the deposited data

How the results depend on the processing

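No called member changed sign under an alternative that kept its probe set, but other probe sets of Uqcrc2 (-0.04) and Cox5b (0.31) had the opposite sign in +/+ against -/-. For +/+ against -/-, Ndufb9, Cox6a1, Cox7a2 and Cox7a2l kept their calls under all 19 alternatives, with log2 fold changes of -1.46 to -1.25, -1.17 to -0.95, -1.17 to -0.79 and 0.91 to 1.44. For +/- against -/-, Ndufb9 and Cox7a2l kept theirs under 17 of 18, all but the wash run block. Atpif1 kept its call under all 19 and all 18. The count of 6 higher and 6 lower members in +/+ against -/- became 3 and 3 with eBayes without a trend, 3 higher with the wash run as a block and 13 lower (of 177) over every probe set of a member. Leaving out 1 sample gave 1 to 6 higher and 3 to 5 lower, with 1 higher without +/+ sample 5, 2 higher without -/- sample 5, 2 higher and 3 lower without -/- sample 8, and 3 and 3 without +/+ sample 1. The count of 4 higher and 3 lower in +/- against -/- became 2 and 1 with eBayes without a trend, 0 and 0 with the wash run as a block, 6 lower with chip A probe sets preferred, and 9 and 8 over every probe set. Leaving out 1 sample gave 2 to 5 higher and 1 to 3 lower, with 2 higher and 1 lower without -/- sample 5 or -/- sample 8, 2 higher without +/- sample 7 or 9 and 1 lower without +/- sample 1. With array weights 1 member was higher in OGCsort +/+ than in CPGSE +/+, against 0 otherwise. The cause of these shifts was not tested.

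The sort number as a random replicate block gave 11 lower members in +/+ against -/-, and kept all 12 calls; the groups share too few numbers for a fixed block, and a shared number is not known to mean a shared animal. The wash run could not be fitted as a block for the CPGSE comparison. Members with several tested probe sets numbered 50, of which 28 had 1 sign in +/+ against -/-, so a call from a single probe set is less certain. Medians of the members moved by less than the spread between samples.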
